A study of Homo sapiens with 14 samples.

Results

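The untreated Snai1ER line was set against the untreated parental line it was made from, with 1 array on each side, 2 of the 14 arrays of the series. The other 4 Snai1ER arrays and the other 8 parental arrays, which the untreated difference does not use, served as a check on which differences go with the line. Expression was measured in a polarized human gastric carcinoma line that the sample labels name MKN28 and the paper MKN74, on the Affymetrix Human Gene 1.0 ST array after NuGEN amplification of the RNA, and the values are log2 levels made by the authors with RMA. The derivative, MKN28snai1ER, carries a Snai1-ER transgene, a Snai1 protein fused to the hormone-binding part of the estrogen receptor, and was measured without 4-hydroxytamoxifen (4-OHT) on day 4, and after 20 ng/ml 4-OHT on days 2 and 4, each labelled with and without ANGPTL4 knockdown. The parental line was measured untreated on day 2, in hypoxia at 1% O2 on days 1 and 2, and with 10 ng/ml TGFβ on days 1 and 2, the treated cells likewise labelled with and without ANGPTL4 knockdown. The 4-OHT arrays labelled knockdown come from a further shRNA derivative, MKN28Snai1ER/shANGPTL4. The sources used here do not say whether the Snai1ER line is 1 clone, nor whether any arrays came from separate cultures.

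Snai1 is a zinc-finger repressor that binds the E-box CAGGTG and silences epithelial genes such as E-cadherin during epithelial-mesenchymal transition (EMT), in which polarized epithelial cells lose their junctions and take on a motile, mesenchymal state. Fused to the receptor domain, such a factor is in general held inactive by chaperones until 4-OHT binds, and the untreated derivative serves as the model's resting state. Activity of the fusion without 4-OHT was not measured here. The untreated pair therefore addresses how far the line differed from its parent without 4-OHT.

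The untreated arrays also differed in time, day 4 against day 2, and line and time cannot be told apart in that pair. In the other 12 arrays every Snai1ER array had 4-OHT and every parental array had hypoxia or TGFβ, so line and treatment cannot be told apart there. A gene was called when the untreated Snai1ER array was at least 1.5-fold above or below the untreated parental array and all 4 other Snai1ER arrays lay on the same side of all 8 other parental arrays. The untreated difference has no replicate and carries no p-value. An error and an adjusted p come from limma on the other 12 arrays, with treatment and the knockdown label as factors and 8 residual degrees of freedom. They measure only the spread between these arrays, which may be technical, and since the separation check uses the same arrays, a small p of a called gene is no further support.

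Over all probe sets, 12 arrays had medians between 5.997 and 6.16, while the TGFβ arrays with no knockdown label, both parental, had 5.23 and 5.19. For this reason the effect of a new quantile normalization on the calls is given beside them. Of the epithelial markers on the array, 9 of 9 passed the filter on dim genes, a mean log2 level of at least 5.90, against 1 of 9 fibroblast, 2 of 8 immune and 1 of 7 endothelial markers. The summed linear signal of the fibroblast markers ranged over 380 to 461 in Snai1ER (5 arrays), against 211 to 492 in parental cells (9 arrays), so the groups overlapped.

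The SNAI1 signal separated the lines on every array. SNAI1 read 9.58 in untreated Snai1ER cells, and 9.62, 9.55, 9.85 and 8.80 on the other Snai1ER arrays (4-OHT day 2, 4-OHT day 4, 4-OHT labelled knockdown day 2 and day 4, the order used for all genes here). It read 6.01 in untreated parental cells and 4.76, 5.91 and 6.19 (lowest, median and highest) on the other 8 parental arrays. The Snai1ER arrays all lay above the parental ones, and the untreated difference was 3.56 on the log2 scale, an 11.8-fold higher level (limma on the other arrays, 3.75 ± 0.22, SE, adjusted p = 4.47e-07). The probe set cannot tell transgene from endogenous transcript. ESR1, which encodes the human estrogen receptor, read 5.08 in untreated Snai1ER and 5.00 in untreated parental cells, and ANGPTL4, the knockdown target, read 5.27 in untreated Snai1ER and 5.28 in untreated parental cells. Both lay below the filter and were not tested. On the 6 treated arrays labelled knockdown, ANGPTL4 read 5.35 and 5.28 (4-OHT days 2 and 4), 5.66 and 5.29 (hypoxia days 1 and 2) and 5.29 and 5.29 (TGFβ days 1 and 2), against 5.43 and 5.05, 5.29 and 5.22, and 4.16 and 4.25 on the matching arrays with no such label. It was lower on the array labelled knockdown in 1 of the 6 pairs, so at these low levels the target's own values do not bear out the label.

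Of 11050 genes tested, 524 (4.74%) were at least 1.5-fold higher in untreated Snai1ER cells and 896 (8.11%) at least 1.5-fold lower. All 4 other Snai1ER arrays lay above all 8 other parental arrays for 396 genes (3.58%), and below for 191 (1.73%). Both conditions were met by 98 genes higher in Snai1ER (0.887%) and 126 lower (1.14%). The separation held for 18.7% of the genes that were 1.5-fold higher in the untreated pair, against 3.58% of all genes, and for 14.1% of those 1.5-fold lower, against 1.73% of all genes. No gene past 1.5-fold in the untreated pair was separated in the opposite direction on the other arrays (0 of 524 and 0 of 896). Across the 11050 genes, which are not independent replicates, the untreated difference and the difference between the means of the other arrays had a Pearson correlation of 0.66, and they share no array but do share the lines.

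The split between directions depended on the scale. After quantile normalization 73 genes (0.661%) were called higher and 198 (1.79%) lower, and with each array centred on its median 41 (0.371%) were called higher and 191 (1.73%) lower. Genes higher in Snai1ER thus made up 43.75% of the 224 called genes as deposited, 26.9% of 271 after quantile normalization and 17.7% of 232 with centring. Called on all 3 scales were 39 higher and 113 lower genes. The median difference between the other Snai1ER and the other parental arrays over all genes was 0.18 as deposited and 0.05 after quantile normalization, and in the untreated pair it was 0.02 and 0.03. Of the called genes, 26 were at least 2-fold higher and 76 at least 2-fold lower, and 1 was at least 8-fold higher (SNAI1) against 6 at least 8-fold lower. The median called difference was 0.78 among the higher and -1.16 among the lower genes. At the edge of the size rule, MRPS26 (0.59) and SNX30 (-0.59) were the called genes closest to it, and HROB (0.58) and KIAA0319 (-0.57) the closest genes outside it.

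**Figure D1:**
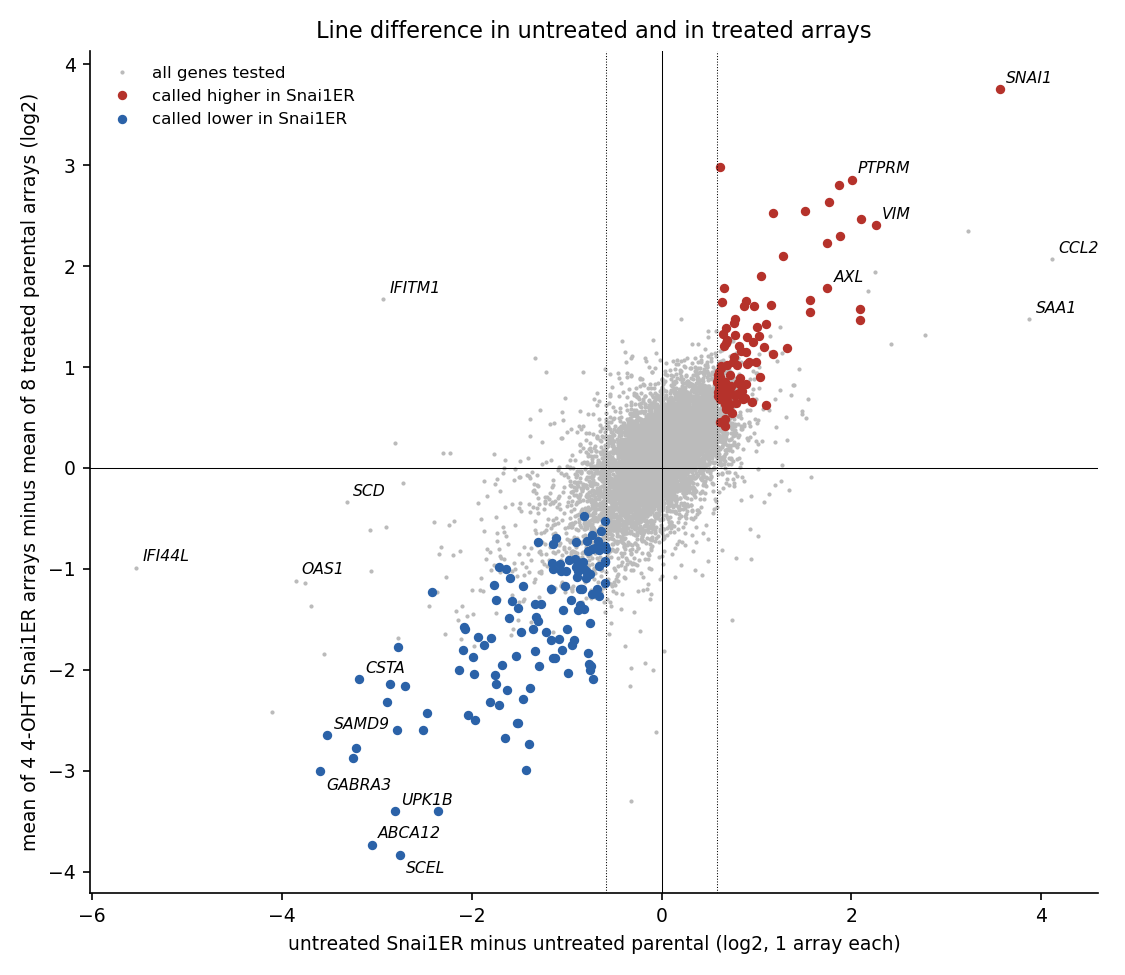
Log2 difference between the untreated Snai1ER and untreated parental arrays (x axis, 1 array each, dotted lines at 1.5-fold) against the difference between the means of the other 4 Snai1ER and the other 8 parental arrays (y axis, log2) for the 11050 genes tested, each gene a point. By the calling rule, the 98 genes called higher (red) and 126 called lower (blue) have the same sign on both axes. IFI44L, OAS1, SCD, CCL2 and SAA1 have large untreated differences but were not called, and IFITM1 has opposite signs on the axes.

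The genes higher in Snai1ER included markers of the mesenchymal state. VIM, which encodes the intermediate filament vimentin, read 7.94 in untreated Snai1ER cells and 7.91, 8.18, 7.49 and 6.57 on the other Snai1ER arrays, against 5.69 in untreated parental cells and 3.56, 5.52 and 5.97 on the other parental arrays. The untreated Snai1ER level lay within those of the 4-OHT arrays, and the difference of 2.26 was a 4.78-fold higher level (limma 2.40 ± 0.37, SE, adjusted p = 0.0013). AXL, a receptor tyrosine kinase for GAS6, read 8.77 in untreated Snai1ER cells and 8.80, 8.46, 9.28 and 8.64 on the other Snai1ER arrays, against 7.02 in untreated parental cells and 6.49, 6.99 and 7.51 on the other parental arrays. The lines did not overlap, and the untreated difference was 1.75, or 3.36-fold (adjusted p = 0.000156 by limma on the other arrays).

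The mesenchymal and contractile list had 13 of 26 genes above the filter. Of the 13, 3 were called higher (23.1%, beside 0.887% of all genes tested) and 0 lower. After quantile normalization 2 of the 13 were called higher. The third was LOXL2, a lysyl oxidase that cross-links collagen, and its call was lost on that scale. LOXL2 read 6.28 in untreated Snai1ER and 5.51 in untreated parental cells. VIM and LOXL2 averaged 5.13 and 5.43 on the other parental arrays, below the filter, and passed it only through their higher Snai1ER levels. The share of 23.1% is therefore no measure of the list. FN1, the matrix protein fibronectin, read 8.78 in untreated Snai1ER and 7.96 in untreated parental cells, but the other arrays overlapped (adjusted p = 0.0556 by limma). TPM2, a muscle-type tropomyosin, read 6.49 in untreated Snai1ER and 7.70 in untreated parental cells and was not called. The list's median difference was -0.00 in the untreated pair and 0.54 on the other arrays, beside 0.02 and 0.18 over all genes tested.

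ROBO1 and PTPRM, receptors of cell guidance and adhesion, were among the 15 largest higher calls. ROBO1, a receptor for SLIT guidance proteins, read 8.63 in untreated Snai1ER cells and 9.20, 8.67, 9.38 and 9.70 on the other Snai1ER arrays, against 6.76 in untreated parental cells and 5.20, 6.62 and 7.31 on the other parental arrays. The untreated Snai1ER array was the lowest of its line and still above all parental arrays, by 1.87 over the untreated parental array (adjusted p = 2.05e-06 by limma). PTPRM, a receptor tyrosine phosphatase that mediates cell-cell adhesion, read 8.96 in untreated Snai1ER cells and 9.11, 8.69, 9.21 and 9.08 on the other Snai1ER arrays, against 6.96 in untreated parental cells and 5.29, 6.30 and 7.02 on the other parental arrays. All Snai1ER values lay between 8.69 and 9.21 and above all parental ones, and the untreated difference was 4-fold (limma 2.86 ± 0.29, SE, adjusted p = 3.24e-05). The neural adhesion molecule L1CAM (1.15), the semaphorin and VEGF co-receptor NRP1 (0.77), the WNT5A receptor ROR1 (0.92) and the WNT secretion factor WLS (1.17), picked after their values were seen, had smaller differences and were called higher as well. Of these 4, L1CAM kept its call with arrays centred on their median. Other genes of guidance or adhesion were called lower, among them EPHA4, NTN4, PTPRK, PCDH7 and NECTIN4. No list of such genes was counted, so no direction is given for them as a group.

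MSX1, a homeobox factor of limb, tooth and craniofacial development, read 8.45 in untreated Snai1ER cells and 9.05, 8.85, 9.69 and 8.45 on the other Snai1ER arrays, against 6.35 in untreated parental cells and 6.04, 6.61 and 6.96 on the other parental arrays. The lines did not overlap, with an untreated difference of 2.10 (adjusted p = 9.95e-06 by limma). The homeobox genes MSX2 (-1.71) and DLX5 (-2.79) were called lower. SGCB, the β-sarcoglycan of the dystrophin complex, was 3.40-fold higher in untreated Snai1ER cells (8.19 against 6.42), and PLCB4, a phospholipase C, was 3.67-fold higher (9.73 against 7.86). TRIML2 (2.09), NLRP10 (2.09), SLCO3A1 (1.56), KIAA1549L (1.56), CCDC88A (1.51) and CHN1 (1.32) complete the 15 largest higher calls together with LGALS3BP (1.74), a secreted galectin-3 binding glycoprotein. Of these 15 genes, 0 lost their call after quantile normalization, CHN1 lost it with arrays centred on their median, and KIAA1549L lost it when its brightest probe set alone was used. GSTM4, a glutathione transferase, was near the size rule in the untreated pair (9.02 in Snai1ER against 8.40 in parental cells), yet read 9.49, 10.04, 10.41 and 10.50 on the other Snai1ER arrays against 6.24, 7.08 and 7.81 on the other parental arrays.

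The lower genes were larger in number and size. GABRA3, a GABA receptor subunit, read 6.83 in untreated Snai1ER cells and 8.23, 8.24, 6.22 and 6.63 on the other Snai1ER arrays, against 10.42 in untreated parental cells and 10.03, 10.20 and 10.85 on the other parental arrays. The 4-OHT arrays with no knockdown label were the highest of the Snai1ER line, all arrays of the line lay below all parental arrays, and the untreated difference was -3.60, a 12.1-fold lower level (limma -3.004 ± 0.33, SE, adjusted p = 7.69e-05). SAMD9, an antiviral factor, was 11.5-fold lower (7.72 against 11.24), and HNMT, which inactivates histamine, was 9.49-fold lower (4.70 against 7.94). The HNMT level on the 5 Snai1ER arrays, 4.43 to 5.03, lay below the level of the filter.

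Genes of the cornified envelope, the cross-linked protein shell that stratified squamous epithelia lay down as they differentiate, were the list with the most lower calls. This list and the urothelial list were chosen after the values had been seen, and their counts describe these arrays only. Of 59 cornified envelope and squamous differentiation genes on the array, 32 passed the filter, and of these 0 were called higher and 11 lower (34.4%, beside 1.14% of all genes tested). SCEL and IVL lay below the filter on the Snai1ER arrays and passed it only through their higher parental levels. The share of 34.4% is therefore no measure of the list. The list's median difference was -0.47 in the untreated pair and -0.49 on the other arrays, and its mean level was 7.44 in untreated Snai1ER cells and 7.20 to 7.39 on the other Snai1ER arrays, against 8.24 in untreated parental cells and 7.72 to 8.39 on the other parental arrays.

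The small proline-rich proteins, envelope precursors that transglutaminases join, stood next to each other. SPRR1A, SPRR3 and SPRR1B on chromosome 1 were the only run of at least 3 genes tested, adjacent in the RefSeq gene order, that were all called in 1 direction. SPRR3 read 7.67 in untreated Snai1ER cells and 6.21, 5.87, 5.87 and 6.03 on the other Snai1ER arrays, against 10.03 in untreated parental cells and 8.97, 9.24 and 10.16 on the other parental arrays. The untreated Snai1ER array lay between the 4-OHT arrays of its line and all parental arrays, 5.11-fold below untreated parental cells (limma -3.40 ± 0.21, SE, adjusted p = 4.47e-07). SPRR1A read 7.68 in untreated Snai1ER cells and 6.88, 7.61, 7.04 and 7.001 on the other Snai1ER arrays, against 10.38 in untreated parental cells and 8.67, 8.99 and 10.84 on the other parental arrays. SPRR1B read 7.70 in untreated Snai1ER cells and 6.92, 6.23, 6.54 and 6.57 on the other Snai1ER arrays, against 9.51 in untreated parental cells and 7.98, 8.97 and 9.61 on the other parental arrays. For both genes the untreated Snai1ER array was again the highest of its line and below all parental arrays. SPRR1A and SPRR1B are near-identical copies, and their probe sets may share signal. Of the other family members tested, SPRR2F (-0.47), SPRR2G (-0.34) and SPRR4 (0.42) were not called.

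The promoters of these 3 genes and of UPK1B were picked for display because each holds the E-box that Snai1 is known to bind. Not all called genes have it. Among the envelope and keratinocyte genes named below, SCEL, IVL and FLG had 0 matches, and ABCA12, KLK6 and S100A9 had 1. Of genes called higher, AXL had 1 match and VIM 0. The windows run from 250 bases before to 50 bases after the transcription start and are from RefSeq, GRCh38.p14, all on the plus strand: SPRR1A at chr1:152983831-152984130, SPRR3 at chr1:153001499-153001798, SPRR1B at chr1:153030953-153031252 and UPK1B at chr3:119173348-119173647. Capitals mark CAGGTG or its reverse complement CACCTG.
SPRR1A: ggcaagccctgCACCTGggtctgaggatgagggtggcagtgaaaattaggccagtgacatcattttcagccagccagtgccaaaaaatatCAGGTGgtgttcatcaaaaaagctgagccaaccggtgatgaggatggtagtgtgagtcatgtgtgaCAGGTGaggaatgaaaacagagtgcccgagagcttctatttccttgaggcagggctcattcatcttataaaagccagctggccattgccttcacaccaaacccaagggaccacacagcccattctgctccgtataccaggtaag
SPRR3: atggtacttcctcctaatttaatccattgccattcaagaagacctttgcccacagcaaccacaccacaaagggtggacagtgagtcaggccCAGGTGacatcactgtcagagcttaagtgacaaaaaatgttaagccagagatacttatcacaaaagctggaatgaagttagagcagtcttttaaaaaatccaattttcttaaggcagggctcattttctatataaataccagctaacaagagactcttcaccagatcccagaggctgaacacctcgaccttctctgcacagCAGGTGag
SPRR1B: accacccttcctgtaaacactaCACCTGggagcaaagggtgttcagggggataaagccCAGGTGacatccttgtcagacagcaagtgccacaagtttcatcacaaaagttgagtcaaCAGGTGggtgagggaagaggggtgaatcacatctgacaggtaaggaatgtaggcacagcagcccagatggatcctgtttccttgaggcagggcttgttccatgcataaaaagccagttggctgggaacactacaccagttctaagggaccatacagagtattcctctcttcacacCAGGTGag
UPK1B: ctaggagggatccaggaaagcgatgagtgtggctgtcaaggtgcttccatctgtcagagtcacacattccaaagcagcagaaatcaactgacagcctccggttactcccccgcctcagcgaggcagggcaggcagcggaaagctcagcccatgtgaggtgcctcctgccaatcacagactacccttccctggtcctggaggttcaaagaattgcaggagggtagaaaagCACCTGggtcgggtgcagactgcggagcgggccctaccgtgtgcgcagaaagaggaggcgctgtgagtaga
The SPRR1A window holds 3 matches, whose first bases lie at -239, -160 and -94 from the start. The SPRR3 window holds 2 (-159 and 43), the SPRR1B window 4 (-228, -192, -133 and 43), and the UPK1B window 1 (-21).

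Both strands of all such windows were searched for CAGGTG, which on the opposite strand reads CACCTG. At least 1 window with a match was found for 38 of the 105 genes called lower that had a RefSeq window (36.2%), for 14 of 80 called higher (17.5%) and for 2132 of 8906 genes tested (23.9%). A gene with more windows has more chances of a match, and the called-lower genes had 1.55 windows on average, the called-higher genes 1.25 and all genes 1.43. Among genes with a single window the shares were 31.3%, 15% and 18.5% for called lower, called higher and all genes. Genes at least 1.5-fold lower in the untreated pair but not called had a match in 25.6%, and those at least 1.5-fold higher but not called in 25.1%. A match says that these letters occur in the window, and Snai1 binding was not measured.

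Other envelope and keratinocyte genes followed. CSTA, the cysteine protease inhibitor cystatin A of the envelope, read 7.75 in untreated Snai1ER cells and 8.75, 9.22, 8.21 and 8.80 on the other Snai1ER arrays, against 10.94 in untreated parental cells and 10.31, 10.84 and 11.25 on the other parental arrays. Here the untreated Snai1ER array was the lowest of its line, 9.12-fold below untreated parental cells (adjusted p = 3.48e-06 by limma). ABCA12, the keratinocyte lipid transporter, read 7.93 in untreated Snai1ER cells and 7.08, 6.93, 6.87 and 7.45 on the other Snai1ER arrays, against 10.99 in untreated parental cells and 10.04, 10.93 and 11.26 on the other parental arrays. The untreated Snai1ER array was the highest of its line, and the untreated difference was -3.05 (limma -3.73 ± 0.17, SE, adjusted p = 2.19e-08).

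SCEL, the envelope protein sciellin, was 6.78-fold lower (4.498 in untreated Snai1ER against 7.26 in untreated parental cells). IVL, the envelope scaffold involucrin, read 5.76 in untreated Snai1ER cells and 5.30 to 5.72 on the other Snai1ER arrays, against 8.19 in untreated parental cells and 5.82, 6.58 and 7.82 on the other parental arrays. Its groups were apart by a small gap, and the difference was 5.36-fold in the untreated pair. The SCEL and IVL levels on the Snai1ER arrays lay below the level of the filter. FLG, filaggrin, was 3.05-fold lower, the kallikrein protease KLK6 2.44-fold, the desmosomal plakin PPL 1.84-fold and the calcium-binding S100A9 1.62-fold. EVPL (-0.55), TGM1 (0.15), the transglutaminase that builds the envelope, and TGM2 (0.84) were not called.

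Of 11 urothelial and stratified surface genes above the filter, 4 were called lower (36.4%, beside 1.14% of all genes tested) and 0 higher. UPK1B and SCNN1A averaged 4.98 and 5.83 on the other Snai1ER arrays, below the filter, and passed it only through their higher parental levels. The share of 36.4% is therefore no measure of the list. UPK1B, a uroplakin of the bladder surface plaques, read 5.00 in untreated Snai1ER cells and 5.15, 5.05, 4.67 and 5.04 on the other Snai1ER arrays, against 7.81 in untreated parental cells and 7.86, 8.19 and 9.13 on the other parental arrays. All 5 Snai1ER levels lay below the level of the filter, 7-fold under untreated parental cells in the untreated pair (adjusted p = 2.3e-06 by limma). LY6G6C, a surface antigen of the LY6 family, was 9.34-fold lower, TMEM45B 7.42-fold, and SCNN1A, a subunit of the epithelial sodium channel, 7.28-fold. UPK2 (-1.26) and TMPRSS4 (-1.30) were past 1.5-fold in the untreated pair, but the other arrays overlapped.

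Epithelial transcription factors were lower in part. ELF5, an ETS factor of glandular epithelia, read 8.67 in untreated Snai1ER cells and 7.04, 6.60, 5.82 and 6.67 on the other Snai1ER arrays, against 10.10 in untreated parental cells and 8.87, 9.60 and 10.24 on the other parental arrays. The untreated Snai1ER array lay between the 4-OHT arrays and the parental arrays, with a difference of -1.43 in the untreated pair and -2.99 on the other arrays (adjusted p = 2.04e-05 by limma). EHF, the ETS gene next to ELF5 in the gene order of chromosome 11, was 2.18-fold lower (8.78 against 9.90). GRHL1, a grainyhead factor of desmosomal genes, was 2.52-fold lower (8.96 against 10.30), and ZNF750, an epidermal differentiation factor, 2.90-fold lower (7.14 against 8.68). Of 10 epithelial gatekeepers tested, GRHL1 and EHF were the 2 called lower (20%, beside 1.14% of all genes). KLF4 (-0.53), ELF3 (-0.42), OVOL1 (0.03) and GRHL2 (0.05) were not, with KLF4 below all parental arrays on the other 4 Snai1ER arrays but under the size rule in the untreated pair.

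Of 31 junction genes tested, 0 were called higher and 3 lower (9.68%, beside 1.14% of all genes). CDH1, E-cadherin, the textbook Snai1 target, read 10.70 in untreated Snai1ER cells and 10.93, 10.84, 10.88 and 10.94 on the other Snai1ER arrays, against 10.99 in untreated parental cells and 10.26, 10.85 and 11.33 on the other parental arrays. The groups overlapped, and the difference on the other arrays was 0.05 ± 0.18 (SE, adjusted p = 0.88 by limma). The 3 called lower were the desmosomal cadherin DSC2 (-0.86) and the tight junction claudins CLDN12 (-0.83) and CLDN1 (-0.72). CLDN1 read 10.11 in untreated Snai1ER cells and 8.77, 9.32, 7.77 and 8.57 on the other Snai1ER arrays, against 10.84 in untreated parental cells and 9.65, 10.82 and 11.17 on the other parental arrays. Of the 5 Snai1ER arrays, the untreated one alone lay above the lowest parental array. CLDN12 lost its call with arrays centred on their median. EPCAM, KRT8 and KRT18 were within 0.21 of their parental level in the untreated pair and were not called.

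The keratins of stratified epithelia, KRT5 (6.29 against 8.48) and KRT13 (7.57 against 9.61), read lower in untreated Snai1ER than in untreated parental cells, but the other arrays overlapped. Of the transcription factors of EMT above the filter, 1 of 5 was called higher (20%, beside 0.887% of all genes). That gene was SNAI1, which the transgene carries, so the share describes no other EMT factor. TWIST1 read 6.43 in untreated Snai1ER and 6.45 in untreated parental cells. ZEB1, ZEB2 and SNAI2 lay below the filter. ABC transporters, drug and lipid pumps that the study was about, had 18 genes tested, and ABCA12 was the 1 called lower (5.56%, beside 1.14% of all genes). ABCC2 read 6.28 in untreated Snai1ER and 7.74 in untreated parental cells (adjusted p = 0.00446 by limma on the other arrays), which overlapped through 1 Snai1ER array at 7.11. ABCC1 read 7.37 in untreated Snai1ER and 7.71 in untreated parental cells and was not called.

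Several of the largest untreated differences failed the check on the other arrays. CCL2, a monocyte chemokine, read 10.72 in untreated Snai1ER cells and 11.14, 7.49, 7.29 and 6.52 on the other Snai1ER arrays, against 6.61 in untreated parental cells and 5.51, 6.05 and 6.76 on the other parental arrays. Its 4-OHT day 2 array was above the untreated one, and the 4-OHT array labelled knockdown on day 4 fell within the parental range. The acute phase gene SAA1 read 9.72 in untreated Snai1ER cells and 8.10, 6.54, 6.44 and 6.84 on the other Snai1ER arrays, against 5.84 in untreated parental cells and 4.45, 5.45 and 6.75 on the other parental arrays. SYT14 (3.22), SAA2 (2.77) and C4BPB (2.42) also failed. Of 29 cytokine and chemokine genes tested 0 were called, beside 0.887% of all genes called higher and 1.14% lower. SAA1 and SAA2 are near-identical copies whose probe sets may share signal.

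Interferon-stimulated genes, an antiviral programme, were the group with the lowest median in the untreated pair. Of 38 tested, 30 were at least 1.5-fold lower and 2 at least 1.5-fold higher in untreated Snai1ER cells. Among all genes tested, 8.11% were lower and 4.74% higher by this size. The list's median was -1.52, yet its median on the other arrays was -0.15 (0.18 over all genes). IFI44L read 4.22 in untreated Snai1ER cells and 6.87, 8.21, 4.73 and 5.85 on the other Snai1ER arrays, against 9.75 in untreated parental cells and 4.44, 7.44 and 10.24 on the other parental arrays. The parental arrays alone spanned nearly the whole range, and the difference of -5.53 in the untreated pair stood beside -0.99 ± 0.70 on the other arrays (SE, adjusted p = 0.347 by limma). OAS1 (-3.86) and RSAD2 (-3.69) failed likewise, as did BCL2L15 (-4.11) and AKR1C2 (-3.75), which are not of this list. IFITM1, a membrane protein that blocks viral entry, turned sign, with -2.93 in the untreated pair and 1.67 on the other arrays. SAMD9 was the 1 interferon gene called lower and LGALS3BP the 1 called higher (2.63% each, beside 1.14% and 0.887% of all genes). By limma on the other arrays 2 of the 38 were lower and 3 higher, beside 3.62% and 5.8% of all genes. After quantile normalization 5 were lower and 2 higher, beside 756 lower and 632 higher among all genes tested. The list's median on the other arrays was then -0.31 (0.05 over all genes). The mean level of the list was 7.34 in untreated Snai1ER cells and 7.11 to 8.38 on the other Snai1ER arrays, against 8.96 in untreated parental cells and 6.89 to 9.66 on the other parental arrays.

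Genes of cholesterol and fatty acid synthesis, driven by the SREBP factors when sterols run low, were also mostly lower in the untreated pair. Of 29 tested, 22 were at least 1.5-fold lower and 0 higher in untreated Snai1ER cells, beside 8.11% and 4.74% of all genes. The list's median was -1.01 in the untreated pair and -0.29 on the other arrays. By limma on the other arrays 7 of the 29 were lower and 0 higher (11 and 0 after quantile normalization), beside 3.62% lower among all genes tested. HMGCS1, the HMG-CoA synthase of the pathway, had a difference of -2.12 in the untreated pair and -1.69 on the other arrays (adjusted p = 0.0136 by limma), with overlap between the lines. SCD, the stearoyl-CoA desaturase, read 8.18 in untreated Snai1ER cells and 10.36, 10.14, 10.17 and 10.18 on the other Snai1ER arrays, against 11.49 in untreated parental cells and 8.87, 10.96 and 11.87 on the other parental arrays. Untreated Snai1ER cells had the lowest level of the 14 arrays, and the other groups overlapped. INSIG1, a regulator of the SREBP factors, read 6.48 in untreated Snai1ER and 9.54 in untreated parental cells. It read 7.12 to 7.64 on the other Snai1ER and 6.35 to 10.06 on the other parental arrays. ACSL5, an acyl-CoA synthetase, was the 1 gene of the list that was called (3.45%, beside 1.14% of all genes called lower), 2.20-fold lower. On the list's mean, the other Snai1ER arrays read 7.74 to 7.94 and the other parental arrays 7.25 to 9.03, which overlapped, and the untreated arrays read 7.58 in Snai1ER and 8.74 in parental cells.

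The unfolded protein and ATF4 response gave a median of -0.34 in the untreated pair and 0.07 on the other arrays. In untreated Snai1ER cells 11 of 32 genes were at least 1.5-fold lower and 0 higher, beside 8.11% and 4.74% of all genes. Called were 0 of the 32, beside 1.14% of all genes lower and 0.887% higher. DDIT4, a stress-induced inhibitor of mTORC1, read 5.06 in untreated Snai1ER and 7.79 in untreated parental cells, with 6.66 to 8.45 on the other Snai1ER and 6.80 to 9.17 on the other parental arrays. Among 24 hypoxia-inducible factor targets, INSIG2 was called lower and LOXL2 higher (4.17% each, beside 1.14% and 0.887% of all genes). Since 4 of the 8 other parental arrays were hypoxic, such targets were open to treatment in the check.

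Cell cycle and DNA replication genes leaned the other way. Of 58 tested, 11 were at least 1.5-fold higher and 0 lower in untreated Snai1ER cells. Over all genes tested the shares were 4.74% and 8.11%. Of the 58, 52 had a positive difference, and the median was 0.36 in the untreated pair and 0.48 on the other arrays. By limma on the other arrays 15 of the 58 were higher and 0 lower, beside 641 (5.8%) higher and 400 (3.62%) lower among all genes tested. None of the 58 was called (0 of 58), beside 0.887% of all genes called higher and 1.14% lower. At such shares 0 of 58 says little about the list. For the 11 past 1.5-fold the other arrays overlapped. The mean level of the list was 9.60 in untreated Snai1ER cells and 8.97 to 9.66 on the other Snai1ER arrays, against 9.24 in untreated parental cells and 8.32 to 9.21 on the other parental arrays. CCNE1, cyclin E1 of the G1/S transition, had the largest untreated difference of the list (8.01 against 7.02), and POLE2, a DNA polymerase epsilon subunit, read 8.21 in untreated Snai1ER against 7.40 in untreated parental cells.

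Genes of single chromosomes also differed together. For each array, the median deviation of a chromosome's genes from their means over the 14 arrays was taken, relative to the same median over all genes. On chromosome 21, with 128 genes, it was -0.16 in untreated Snai1ER cells and ranged over -0.20 to -0.14 on all 5 Snai1ER arrays, against 0.10 in untreated parental cells and 0.06 to 0.17 on all 9 parental arrays. The groups did not overlap, and their means differed by -0.27, the largest difference of any chromosome from 1 to 22 and X. Snai1ER arrays also lay below all parental arrays on chromosomes 6, 7 and 9, and above them on 10, 17, 18, 20 and X, with differences between the means of 0.08 to 0.14 in size. On chromosome 21, 4 genes were called lower (3.13%, beside 1.14% of all genes) and 0 higher, while chromosome 2 had 2.99%, chromosome 9 2.63% and chromosome 7 2.42% called lower. The 4 genes were NRIP1 (-1.36), DOP1B (-1.02), DSCR4 (-0.77) and SLC37A1 (-1.60). On chromosome 18, 10 of 152 genes were called higher (6.58%, beside 0.887% of all genes) and 2 lower, PTPRM among the higher and DSC2 among the lower. Of these 10 genes, 5 kept their call after quantile normalization. Copy number was not measured.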

How the data were processed

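The 14 arrays, 1 per condition, were grouped by the line, treatment, day and knockdown in their labels. The authors deposited 1 log2 level per probe set and array. RMA and Partek are the tools that the submitters' processing notes list, with no version, and the levels entered every calculation as deposited. Identical values on 2 or more arrays occur in 29.6% of the probe sets. Of 33297 probe sets, 19460 have 1 gene symbol, 1754 have several and 12083 are not listed in the array's annotation, and the last 2 kinds were not named. Current symbols were taken from RefSeq, where 19429 gene IDs matched. Probe sets of a gene were averaged, giving 18417 genes, of which 11050 had a mean at or above the 40th percentile, a log2 level of 5.90. The number of arrays limits the precision.

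The untreated Snai1ER array minus the untreated parental array gave the difference, with 1.5-fold as the rule of size and the other 12 arrays as the check. These 12 were fitted with limma 3.58.1 in R 4.3.3 (treatment and the knockdown label as factors, 4-OHT against the mean of hypoxia and TGFβ, Benjamini-Hochberg threshold 0.05), and the script was tested on simulated data. Promoter windows are those of RefSeq, GRCh38.p14. RefSeq placed 11036 of the genes tested on a chromosome.

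The comparison, the gene lists and the alternatives were chosen with earlier results of these data known. Named are SNAI1, ESR1 and ANGPTL4, the 15 largest called differences in each direction, up to 4 called members of each list, the 5 largest differences in each direction that failed the check, and the genes of the neighbour run. Genes named beyond this rule were chosen after their values were seen. Alternatives covered array scaling, the filter on dim genes, the brightest probe set, a 2-fold rule, subsets of the other arrays, leaving out each array, a mean-variance trend and line as the only factor.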

Additional observations from a re-analysis of the deposited data

How the results depend on the processing

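The size rule rests on 1 array a side, and neither a second untreated array nor a parental array of day 4 was analysed here, so chance variation of a single array is not measured. No paired analysis was possible because no condition was repeated. The deposited scale gave 98 genes higher and 126 lower in Snai1ER and, by limma on the other 12 arrays, 641 higher and 400 lower.

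Quantile normalization gave 198 lower, and 756 lower by limma. Centring each array on its median gave 41 higher and 191 lower, and by limma 323 higher and 782 lower. A 2-fold rule gave 26 and 76. Checking without the TGFβ arrays that have no knockdown gave 220 lower, against hypoxia arrays only 184 higher and 329 lower, on arrays without knockdown only 326 and 261, and on arrays of day 2 only 291 and 278. With line as the only factor, limma called 225 higher and 207 lower. After the data had been seen, limma without both TGFβ arrays that have no knockdown (154 higher) and quantile normalization with the check on day 2 only (266 higher and 446 lower) were added. Leaving out each of the 12 arrays gave 99 to 172 higher and 126 to 158 lower, the 172 without the 4-OHT knockdown array of day 4. By limma it gave 201 to 1042 higher and 213 to 789 lower. The limma count of higher genes was 201 without 4-OHT day 2, 267 without 4-OHT knockdown day 2, 344 without TGFβ day 1, 336 without TGFβ day 2 and 1042 without hypoxia knockdown day 1. The limma count of lower genes was 213 without 4-OHT knockdown day 2 and 789 without hypoxia knockdown day 1. The cause of these shifts was not tested. Other settings kept each count within 1.5 times. Of the 48 called genes named by the naming rule, 0 turned direction under the scalings or the brightest probe set. After quantile normalization 4 of them lost their call (ACP3, LOXL2, MYBL1, OAT), with arrays centred on their median 6, and with the brightest probe set 1 (KIAA1549L). Genes named beyond the rule are not in these counts. Some of those were called as deposited only (UTP14A, RRS1, LAS1L and DDX50). Others, such as NAT10, NOL10, UTP25 and PUM3, lost the call with arrays centred on their median. CEACAM6 fell below the filter after quantile normalization and with the brightest probe set and was not tested there. Knockdown here means the label.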

Other observations

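Genes named here were picked after their values were seen, and no test was made of any group. No list of such genes was counted, so no share of called members is given. Several signalling genes best known from lymphocytes were called lower in Snai1ER as deposited and after quantile normalization. BLNK, an adaptor of the B cell receptor, read 5.82 in untreated Snai1ER cells and 5.70 to 6.19 on the other Snai1ER arrays, against 7.91 in untreated parental cells and 6.81, 7.499 and 8.94 (lowest, median and highest) on the other parental arrays. The kinase SYK (-1.06), the actin-binding HCLS1 (-1.68), the exchange factors DOCK8 (-1.87) and RASGRP3 (-1.53), the adaptor DAPP1 (-0.76) and the transcription factors NFATC2 (-1.03), PRDM1 (-0.77) and IKZF2 (-2.47) were called lower too. Other genes of this kind went the other way. MALT1 (0.84) and PTPN2 (0.71) were called higher as deposited and after quantile normalization, and ADA and STAT5B were called higher as deposited. Of 8 immune markers on the array, 2 passed the filter, with a summed linear signal of 365 to 446 in Snai1ER (5 arrays) and 188 to 496 in parental cells (9 arrays), and its part in these values was not tested.

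Some genes of ribosome assembly in the nucleolus, picked from the calls, were called higher as deposited. UTP18 (0.57), another such gene, was separated on the other arrays but under the size rule. NAT10, an RNA acetyltransferase, read 8.89 in untreated Snai1ER cells and 8.59 to 9.72 on the other Snai1ER arrays, against 7.997 in untreated parental cells and 7.18, 7.94 and 8.47 on the other parental arrays. NOL10 (0.72), UTP25 (0.61) and PUM3 (0.60) were called higher as deposited and after quantile normalization, and UTP14A (0.80), RRS1 (0.80), LAS1L (0.67) and DDX50 (0.74) as deposited only. With arrays centred on their median, NAT10, NOL10, UTP25 and PUM3 lost the call as well.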
